A study of Mus musculus with 74 samples.

Results

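Mgll and Slc25a20 are 2 genes of lipid use among the 5844 genes that the platform annotation names singly on a mouse cDNA array of 8976 probes. They were found as the probes whose only gene symbol is Mgll or Slc25a20, and each gene had 1 probe. Both genes were chosen on the late-response values of these same arrays, so their values are given here as a description and not as a test. The study compared TGF-β with no TGF-β over time on 74 dual-channel arrays in 5 cell lines or treatments, S2WT, S3WT, S2KO, S3KO and U0126. The times were 0, 0.3, 1, 2 and 4 h, each with 3 arrays in a line, and S3KO at 1 h had 2. The labels give neither a cell type nor what S2 and S3 stand for. A published study of the same design, known from outside the labels, used the names for Smad2 and Smad3, wild type and knockout, in mouse embryonic fibroblasts. U0126 is an inhibitor of MEK, and the titles set it against S2WT whereas both channels of those arrays are labelled with S2WT and U0126 at once.

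At 0 h both channels held untreated RNA, and at later times channel 1 was labelled without and channel 2 with TGF-β. S3KO at 0.3 h was labelled without TGF-β in both channels, and another field calls the 4 h arrays of S2WT 2 h. The deposited values are log2 ratios whose scale, normalisation and dyes are not given. They are read here as likely the TGF-β channel over the other, and every sign below depends on that reading. Values were centred on each array's median, so 0 marks the median probe of that array. A ratio has no level per cell, so neither the cell type nor the knockout could be checked from these values. In cell mixtures, fewer cells of a type and less RNA per cell cannot be told apart.

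Mgll encodes monoacylglycerol lipase, which splits monoacylglycerols, the last step of triacylglycerol breakdown, and also clears a main endocannabinoid. Slc25a20 encodes the carnitine-acylcarnitine carrier of the inner mitochondrial membrane, through which long-chain fatty acids enter the mitochondrion for β-oxidation. TGF-β binds a receptor kinase that phosphorylates Smad2 and Smad3, which then act with Smad4 at target genes, and it also engages the MEK to ERK cascade.

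The start-site regions of both genes are shown because the study's design bears on Smad and MEK signalling at promoters. They are RefSeq windows of the GRCm38.p6 build on the plus strand, from 250 bases before to 50 after each annotated start. For Mgll the windows are chr6:88724162-88724461 and chr6:88724454-88724753, and for Slc25a20 chr9:108661886-108662185. Capitals mark matches on either strand to CAGAC (a Smad-binding element), TGACTCA (an AP-1 site), CACGTG (an E-box), AGGTCA (a nuclear receptor half-site), CCGGAAG (an ETS core) and GGGCGG (a GC box).
Mgll first start: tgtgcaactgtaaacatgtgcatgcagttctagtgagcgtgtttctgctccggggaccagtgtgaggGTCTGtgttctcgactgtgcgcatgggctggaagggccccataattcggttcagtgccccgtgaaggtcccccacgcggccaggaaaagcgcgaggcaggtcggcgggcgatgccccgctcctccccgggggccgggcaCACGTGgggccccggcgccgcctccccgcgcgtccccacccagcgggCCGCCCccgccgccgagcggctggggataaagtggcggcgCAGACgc
Mgll second start: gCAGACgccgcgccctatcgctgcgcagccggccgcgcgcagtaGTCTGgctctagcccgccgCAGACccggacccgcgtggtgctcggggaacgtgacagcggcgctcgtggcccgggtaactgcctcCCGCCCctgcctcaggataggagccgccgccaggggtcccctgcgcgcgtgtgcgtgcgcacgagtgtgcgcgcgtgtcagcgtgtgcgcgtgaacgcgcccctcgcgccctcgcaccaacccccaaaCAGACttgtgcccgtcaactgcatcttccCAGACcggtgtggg
Slc25a20 start: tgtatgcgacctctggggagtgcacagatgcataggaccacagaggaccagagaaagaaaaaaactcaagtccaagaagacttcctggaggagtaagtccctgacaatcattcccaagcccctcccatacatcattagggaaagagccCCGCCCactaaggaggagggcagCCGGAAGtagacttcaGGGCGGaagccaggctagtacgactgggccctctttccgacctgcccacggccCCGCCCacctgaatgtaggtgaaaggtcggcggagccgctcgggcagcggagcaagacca

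CAGAC matched 2 times in the first Mgll window, 5 times in the second and 0 times in the Slc25a20 window, while 49.6% of 32851 windows held at least 1 match. The Mgll windows overlap, and 1 of those matches is shared. The E-box was in the first Mgll window only among the 3, and 7.15% of all windows held it. The ETS core was in the Slc25a20 window only, and 8.86% of all windows held it. The GC box matched 1 time in each Mgll window and 3 times in the Slc25a20 window, against 35.7% of windows with a match. TGACTCA and AGGTCA matched none of the 3 windows, and 5.2% and 16.3% of all windows held them. The Mgll windows were rich in G and C, at 70% and 72.3%, and the Slc25a20 window was at 58%, with a median of 52.7% over all windows. A match is a stretch of letters and not a site of binding.

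The arrays differed in spread, with a median absolute deviation of log2 ratios of 0.230 to 0.706. Precision is limited by how few arrays each group has. The labels do not say whether replicates came from separate cultures, so the spread may be technical. The residual SD of Mgll was 0.449, smaller than that of most probes (37.2% of probes were smaller), and that of Slc25a20 was 0.565 (48.3% were smaller). The median over probes was 0.585. Slc25a20 was blank on 2 arrays, S2KO and S3KO replicate 1 at 0 h.

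The Mgll mean was higher at 4 h than at 0 h in every line, while the untreated 0 h values themselves differed widely between lines. In S2WT the 0 h arrays read -0.16, 0.13 and -0.71, the 0.3 h arrays 0.25, 0.67 and 0.15, the 1 h arrays 0.72, 0.06 and 0.08, the 2 h arrays 0.81, 0.54 and 0.93, and the 4 h arrays 1.13, 0.83 and 1.24. The 2 h and 4 h arrays all lay above the highest 0 h array. In S3WT the 0 h arrays read -1.35, -1.34 and -0.12, the 0.3 h arrays -0.17, -0.30 and 0.18, the 1 h arrays 0.10, -0.10 and -0.25, the 2 h arrays 0.15, 0.36 and 0.01, and the 4 h arrays 0.17, 1.19 and 0.50. Both of the low 0 h arrays lie in the lowest 3.80% of their arrays' probes, and 8 of 9 arrays from 1 to 4 h were above the highest 0 h array of that line.

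In S2KO the Mgll values were the most scattered. The 0 h arrays read -1.74, 0.29 and -0.34, the 0.3 h arrays 0.01, -0.07 and -1.15, the 1 h arrays 0.27, 0.02 and 1.11, the 2 h arrays 0.96, 0.21 and 0.87, and the 4 h arrays 1.56, 0.06 and 1.92. The 0 h and 4 h arrays overlap through 1 array on each side. The S2KO 0 h array at -1.74 (replicate 1) was also among the widest of the 74 arrays, with a median absolute deviation of 0.686 and rank 3 from the top. In S3KO the groups lay close together: 0 h arrays read -0.02, 0.17 and 0.22, 0.3 h arrays 0.08, 0.05 and 0.32, 1 h arrays -0.36 and 0.41, 2 h arrays 0.36, 0.26 and 0.41, and 4 h arrays 0.06, 0.55 and 0.61. The 2 h arrays were all above the highest 0 h array, and 2 of 3 at 4 h were. In U0126 the 0 h arrays read 0.44, 0.13 and 0.11, the 0.3 h arrays 0.29, -0.22 and 0.33, the 1 h arrays 0.15, 0.16 and 0.13, the 2 h arrays 0.68, 0.69 and 0.41, and the 4 h arrays 0.74, 1.43 and 0.77. There the 3 arrays at 4 h were above all 0 h arrays, while the 1 h arrays were not.

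Slc25a20 stood highest in U0126, at 1, 2 and 4 h. Its 0 h arrays in U0126 read 0.18, -0.92 and 0.27, its 0.3 h arrays 0.14, 0.04 and -1.05, its 1 h arrays 0.32, 1.57 and 1.17, its 2 h arrays 1.35, 1.31 and 1.21, and its 4 h arrays 0.70, 0.80 and 1.04. All 9 arrays from 1 to 4 h were above the highest U0126 0 h array, and 8 of 9 above the highest of the 13 pooled 0 h arrays with a value. In S2WT the 0 h arrays were 0.44, -0.32 and -0.64, the 1 h arrays 1.14, 0.84 and -0.27, the 2 h arrays -0.18, 1.02 and 0.19, and the 4 h arrays 0.90, 0.97 and 0.33. Each treated time overlapped with 0 h there. In S3WT the 0 h arrays were 0.22, 0.30 and 0.08, the 0.3 h arrays 0.37, 0.20 and 0.29, the 1 h arrays -0.10, 0.17 and 0.18, the 2 h arrays 1.57, 0.26 and 0.17, and the 4 h arrays 0.71, 0.12 and 0.07. These overlapped too, with 1 high array at 2 h.

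In S2KO Slc25a20 read -0.03 and -0.09 at 0 h, -0.06, 0.42 and -0.20 at 0.3 h, 0.47, 1.09 and 0.30 at 1 h, 0.17, 0.11 and -0.11 at 2 h, and 0.11, 1.01 and 0.01 at 4 h. The 1 h and 4 h arrays lay above both 0 h values. In S3KO the 0 h values were -2.39 and 0.18, the 1 h values 0.06 and 0.05, the 2 h values -0.33, -0.03 and 0.12, and the 4 h values 0.06, -0.06 and 0.19. The S3KO 0 h mean therefore rests on 1 very low array (replicate 2) and 1 near 0, and at the treated times S3KO held no array above the highest pooled 0 h array. At 0.3 h, before the late times, S2WT was low at 0.18, -1.93 and -0.94, while S3KO was 0.25, 1.58 and 0.26, under the label without TGF-β.

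**Figure D1:**
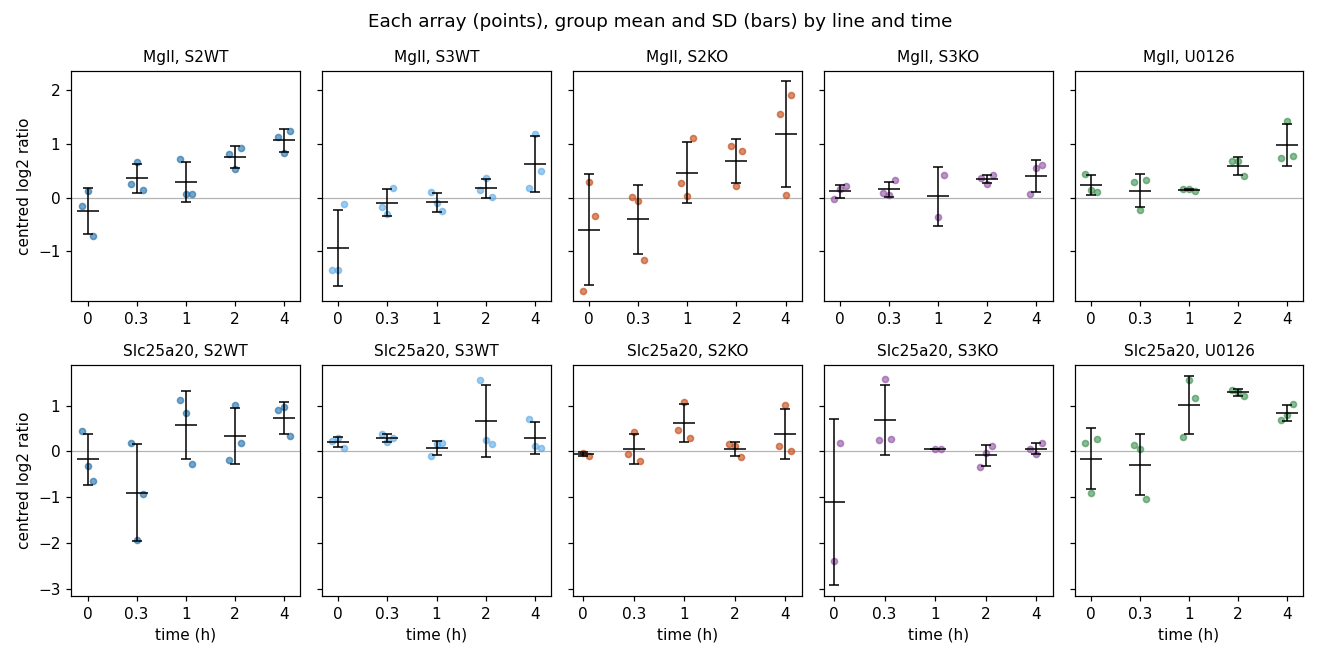
Centred log2 ratio of Mgll (top) and Slc25a20 (bottom) on each array by line and time in h; points are arrays, horizontal bars are group means and whiskers 1 SD (2 arrays in S3KO at 1 h, and for Slc25a20 in S2KO and S3KO at 0 h). Mgll reached 1.07 at 4 h in S2WT, 0.62 in S3WT and 0.41 in S3KO, and Slc25a20 reached 1.29 at 2 h in U0126.

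Ordered by mean over the 25 groups, Mgll was highest at 4 h in S2KO (1.18 ± 0.99, SD, n = 3), S2WT (1.07 ± 0.21, n = 3) and U0126 (0.98 ± 0.39, n = 3). It was lowest at 0 h in S3WT (-0.94 ± 0.70, n = 3) and S2KO (-0.60 ± 1.04, n = 3). Neighbours in that order lay closer than the SD of both groups except at 2 of the 24 steps, between U0126 4 h and S2WT 2 h and between U0126 1 h and U0126 0.3 h. Slc25a20 was highest at 2 h in U0126 (1.29 ± 0.07, n = 3), 1 h in U0126 (1.02 ± 0.64, n = 3) and 4 h in U0126 (0.85 ± 0.17, n = 3), and lowest at 0 h in S3KO (-1.10 ± 1.82, n = 2). Only 3 of its 24 steps exceeded the smaller SD, the first of them below U0126 at 2 h.

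The Mgll mean was higher at 2 h than at 1 h and higher again at 4 h in 5 of 5 lines, as it was for 30 of 6291 probes with all groups (0.477%). Mgll was chosen on these same late arrays, so that share is a description and no test of rarity. In S3KO the 1 h mean rests on 2 arrays, at -0.36 and 0.41. The step from 1 to 4 h was 0.78 ± 0.37 in S2WT, 0.71 ± 0.37 in S2KO, 0.83 ± 0.37 in U0126, 0.71 ± 0.37 in S3WT and 0.38 ± 0.41 in S3KO (log2, SE). Among the 30 probes Mgll had rank 6 by mean step, 0.68, behind Kif26b (a kinesin, 1.30), Creb3l2 (1.10), Ldlrad4 (0.92), Fhl2 (0.81) and Itga5 (an integrin chain, 0.76). Those names were chosen after their values were seen. Slc25a20 had this order in 0 lines, and its 4 h mean was above its 0 h mean in 5 of 5 lines, as for Mgll and for 6.8% of probes.

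The late response, the mean of 1, 2 and 4 h minus the line's own 0 h arrays, was for Mgll 0.95 ± 0.30 in S2WT, 1.17 ± 0.30 in S3WT and 1.37 ± 0.30 in S2KO (log2, SE). It was 0.14 ± 0.31 in S3KO and 0.34 ± 0.30 in U0126. For Slc25a20 it was 0.72 ± 0.37 in S2WT, 0.41 ± 0.44 in S2KO, 1.21 ± 0.37 in U0126, 0.15 ± 0.37 in S3WT and 1.12 ± 0.44 in S3KO, the last against 2 arrays at 0 h. By limma's moderated test over all probes with Benjamini-Hochberg adjustment under 0.05, 0 of 2 genes were called in S2WT, where 0.192% of probes were. In S3WT it was 0 of 2 with 0.12% of probes called, and in S2KO 1 of 2 (Mgll) with 0.515%. In S3KO it was 0 of 2 with 1.53%, and in U0126 0 of 2 with 0.0719%. Nothing is read from these counts, since the genes were picked on this contrast. Without S2KO 0 h replicate 1, the array at -1.74, the S2KO response of Mgll was 0.80 and was not called, and without the other S2KO 0 h arrays or any late S2KO array it was called. It was also not called with arrays scaled to a common spread (1.07) or with the spread taken from S2KO arrays only, and was called in 6 of 8 settings other than leaving out an array.

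With the 0 h arrays of all 5 lines pooled (15 for Mgll, 13 for Slc25a20), Mgll was 0.99 ± 0.19 in S2WT, 1.06 ± 0.19 in S2KO, 0.86 ± 0.19 in U0126, 0.52 ± 0.19 in S3WT and 0.54 ± 0.20 in S3KO. Slc25a20 was 0.81 ± 0.24 in S2WT, 0.61 ± 0.24 in S2KO, 1.31 ± 0.24 in U0126, 0.61 ± 0.24 in S3WT and 0.27 ± 0.26 in S3KO. In U0126 Slc25a20 ranked 14 of 7543 probes from the highest. Against the U0126 0 h arrays alone it ranked 193 of 8349, and that response was 0.83 without U0126 0 h replicate 2. The gene was picked on late values, so a high rank is a description only. The pooled calls were 1 of 2 in S2WT (Mgll, with 1.27% of probes called), 1 of 2 in S2KO (Mgll, 2.49%), 2 of 2 in U0126 (0.782%), 0 of 2 in S3WT (0.146%) and 0 of 2 in S3KO (0.0141%), and nothing is read from them either. These responses share the pooled 0 h arrays, so the lines are not independent here. The pooled values assume that the lines share a background, and the 0 h means of Mgll ran from -0.94 in S3WT to 0.23 in U0126.

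The baseline moved several values. With the 1, 2 and 4 h arrays read against 0 and no subtraction, Mgll was 0.70 in S2WT, 0.78 in S2KO, 0.57 in U0126, 0.24 in S3WT and 0.26 in S3KO. Slc25a20 in S3KO was 0.012 in that reading, against 1.12 over its own 0 h arrays.

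**Figure D2:**
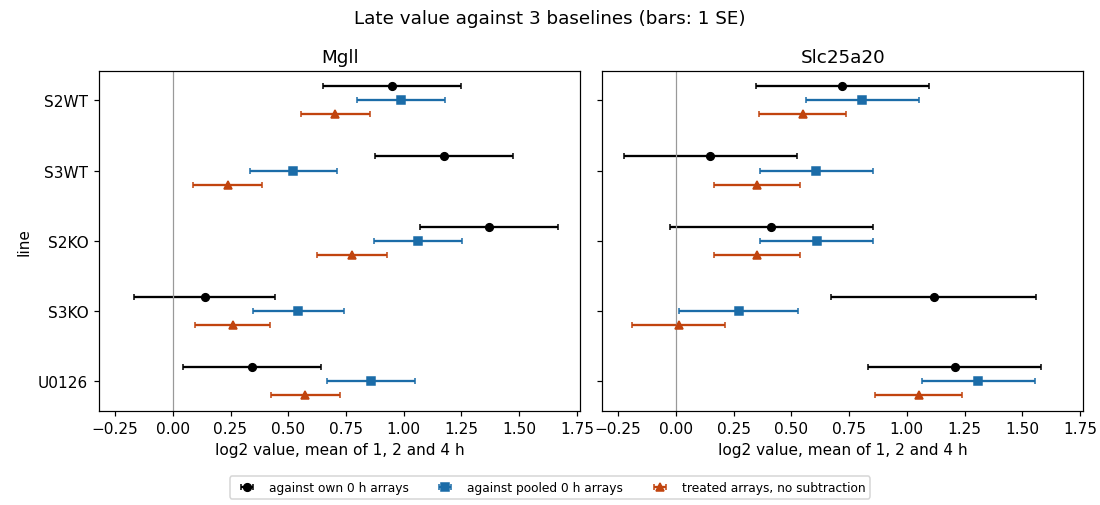
Mean log2 value of the 1, 2 and 4 h arrays for Mgll (left) and Slc25a20 (right) in each line, against the line's own 0 h arrays (circles), the pooled 0 h arrays of 5 lines (squares) or no baseline (triangles); bars are 1 SE. Mgll in S3WT moved from 1.17 to 0.24 with the baseline, and Slc25a20 in U0126 stayed between 1.05 and 1.31.

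The knockout and inhibitor contrasts were taken as differences of responses, each against its own 0 h arrays. For S2KO minus S2WT, Mgll differed by 0.42 ± 0.42 and Slc25a20 by -0.31 ± 0.58, 0 of 2 called with 0.0386% of probes called. For S3KO minus S3WT, Mgll differed by -1.04 ± 0.43 and Slc25a20 by 0.97 ± 0.58, 0 of 2 called with 0.126% of probes. For U0126 minus S2WT, Mgll differed by -0.61 ± 0.42 and Slc25a20 by 0.49 ± 0.53, 0 of 2 called with 0.0252% of probes. A direct comparison of treated arrays without the 0 h arrays put the S3KO minus S3WT difference of Mgll at 0.022, against -1.04, and that of Slc25a20 at -0.34, against 0.97. The same comparison put U0126 minus S2WT for Mgll at -0.13, against -0.61. Single 0 h arrays moved these differences as well. The S2KO minus S2WT difference of Mgll was -0.15 without S2KO 0 h replicate 1 and 0.86 without replicate 2, and was 0.23 without S2WT 0 h replicate 2 and 0.66 without replicate 3. That of Slc25a20 was -0.61 without S2WT 0 h replicate 1 and -0.07 without replicate 3. The U0126 minus S2WT difference of Mgll was -0.37 without S2WT 0 h replicate 3. That of Slc25a20 was 0.11 without U0126 0 h replicate 2 and 0.18 without S2WT 0 h replicate 1. The S3WT 0 h arrays at -1.35 and -1.34 and the S3KO 0 h array at -2.39 enter the subtracted values only.

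Over the 25 group means Mgll and Slc25a20 had r = 0.31, and 0.33 without the S3KO 0 h group. Over the 72 arrays with both genes r was 0.11, and over the 44 of these from 1 to 4 h it was -0.05. These are descriptions over points that share arrays and centring.

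Among 5302 probes compared over the 25 group means, those most like Mgll were Tbc1d1, a Rab GTPase-activating protein (r = 0.84), Creb3l2, a membrane-bound transcription factor (0.84), Csdc2, an RNA-binding protein (0.84), Nmt1, an N-myristoyltransferase (0.81), and Jmjd6, a hydroxylase (0.79). The most opposite were Zfp36l1, which promotes mRNA decay (-0.79), Ankrd39 (-0.79) and Txnip, a thioredoxin-binding protein (-0.78). Slc25a20 was most like Hnrnph2, a splicing factor (0.75), Chmp3, of the ESCRT-III complex (0.72), Cnot2, of the CCR4-NOT complex (0.72), Lgals9, a galectin (0.72), and Ptpra, a receptor tyrosine phosphatase (0.71). Its most opposite were Trim25, a ubiquitin ligase (-0.73), Grina (-0.71) and Rere (-0.69). The median r over these probes was 0.03 for Mgll and 0.01 for Slc25a20. Each named gene stands here for 1 probe. Creb3l2 was on 3 probes, and Csdc2, Txnip, Zfp36l1, Hnrnph2, Chmp3, Ptpra, Rere, Grina and Trim25 on 2 each. The r of their other probes is not given here. Without the S3KO 0 h group, chosen for that check after its values were seen, the r of Slc25a20 with Chmp3 was 0.60 and with Rere -0.55, while that of Mgll with Tbc1d1 stayed at 0.84.

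**Figure D3:**
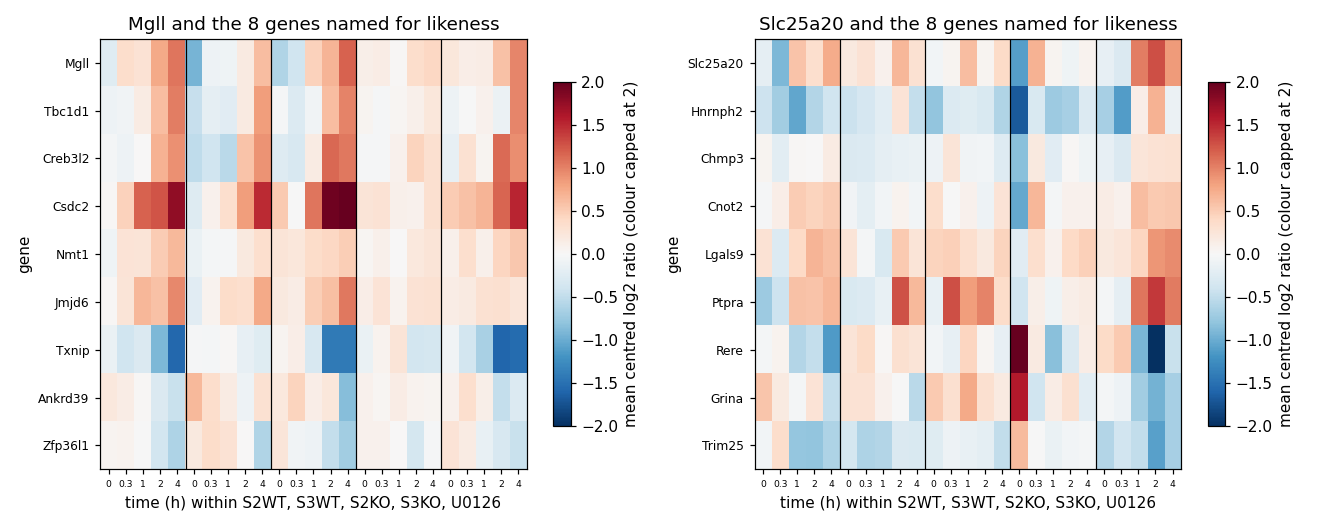
Mean centred log2 ratio (colour, capped at 2) in the 25 groups for Mgll (left) and Slc25a20 (right) with the 5 most alike and 3 most opposite genes by r, in blocks of 5 times for S2WT, S3WT, S2KO, S3KO and U0126. For Creb3l2, 1 of 3 probes is shown, at r = 0.84 with Mgll, and for Txnip 1 of 2, at -0.78.

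Other lipid genes were followed in 7 lists, and apart from the 2 genes themselves 72 of 187 listed genes were on the array. The lists were chosen with results of these arrays known. Against own 0 h arrays, 0 of 69 tested genes were called in S2WT by limma (3 at an unadjusted p under 0.05), 1 of 68 in S2KO, 0 of 68 in U0126 (6), 0 of 65 in S3WT (9) and 1 of 64 in S3KO. Against pooled 0 h arrays, 2 of 62 were called in S2WT, 2 of 64 in S2KO, 0 of 61 in U0126 (8 at an unadjusted p under 0.05), 0 of 62 in S3WT (4) and 0 of 59 in S3KO (3). Of all probes, 1.27% were called in S2WT and 2.49% in S2KO in that comparison. The list shares of 3.23% and 3.12% rest on 2 genes each, and the S2KO share is near the background. List shares count genes, called if any of their probes was, whereas the background counts probes, so the 2 are not strictly alike. Of all probes, 0.782% were called in U0126, 0.146% in S3WT and 0.0141% in S3KO. Against own 0 h arrays the single genes in S2KO and S3KO stand beside 0.515% and 1.53% of all probes. The medians of the pooled responses of these genes were between -0.06 and 0.03, and those of all probes between -0.0014 and 0.0091.

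Of the genes around Mgll, which split stored lipids or endocannabinoids, 11 of 31 were on the array, and none but Mgll was called in a late response. Hilpda, an inhibitor of triacylglycerol lipase, was at -0.65 ± 0.21 against own 0 h arrays in U0126 (adjusted p = 0.33 by limma) and was not called. Of the carnitine and fatty acid activation genes around Slc25a20, 10 of 29 were on the array. Aldh9a1, of carnitine synthesis, was lower in S2WT against the pooled 0 h arrays at 1 probe (-0.83 ± 0.19, adjusted p = 0.0128 by limma), while its other probe gave -0.16 (adjusted p = 0.758 by limma). Crot, the peroxisomal carnitine octanoyltransferase, was at -0.79 ± 0.35 against own 0 h arrays in S2KO (adjusted p = 0.50 by limma) and was not called.

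Of the mitochondrial β-oxidation genes, 11 of 27 were on the array, and none was called in any late response against own or pooled 0 h arrays. Against the pooled 0 h arrays the median of their 14 tested probes was -0.10 in S2WT, -0.11 in S2KO, -0.12 in U0126 and -0.14 in S3WT, and that of 13 probes in S3KO was -0.0025. Of the peroxisomal genes, 6 of 23 were on the array. Pecr, a trans-enoyl-CoA reductase, was at -2.95 ± 0.68 in S2KO against own 0 h arrays (adjusted p = 0.0333 by limma). That call was kept in 5 of 10 fits without 1 array. The S2KO 0 h mean of Pecr was itself 2.34, and with the treated arrays read against 0 the value was -0.61. Against the pooled 0 h arrays Pecr was not called in S2KO. Of the uptake genes, 7 of 16 were on the array and none was called; Vldlr, a lipoprotein receptor, was at -0.40 ± 0.11 in S2WT against the pooled 0 h arrays (adjusted p = 0.0578 by limma).

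Of the synthesis genes, 15 of 33 were on the array. Scd1, which desaturates fatty acids, was lower by 0.47 ± 0.10 in S2WT (adjusted p = 0.0105 by limma) and by 0.51 ± 0.10 in S2KO (adjusted p = 0.0013 by limma) against the pooled 0 h arrays. Both calls held in 24 of 24 fits without 1 array. The 0 h means of Scd1 were themselves -0.254 in S2WT and -0.289 in S2KO. Means at 1, 2 and 4 h were -0.235, -0.551 and -0.939 in S2WT and -0.365, -0.907 and -0.591 in S2KO. Against own 0 h arrays no synthesis gene was called in either line. Dgat1, which makes triacylglycerol, was at 0.52 ± 0.14 in S2KO against the pooled 0 h arrays at 1 probe (adjusted p = 0.0318 by limma). Its other probe was at 0.12 (adjusted p = 0.866 by limma). The S2KO 0 h mean of the first probe was itself 0.475, with 0.75, 0.59 and 0.74 at 1, 2 and 4 h. At the other probe it was 1.16, with lower means of 0.41, 0.52 and 0.62 at those times. The Dgat1 call was kept in 16 of 24 fits without 1 array. Acaca, acetyl-CoA carboxylase, was at 0.72 ± 0.22 in U0126 against own 0 h arrays (adjusted p = 0.30 by limma) and was not called. Without U0126 0 h replicate 3 it was 0.30, and with the treated arrays read against 0 it was 0.09. Of the regulators, 14 of 30 were on the array, and Rxra, the partner receptor of PPARs, rose by 1.34 ± 0.32 in S3KO against own 0 h arrays (adjusted p = 0.0181 by limma). Without S3KO 0 h replicate 3 its value was 0.24 and was not called. Pprc1, a coactivator, was at 0.33 ± 0.09 in U0126 against the pooled 0 h arrays (adjusted p = 0.0841 by limma).

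**Figure D4:**
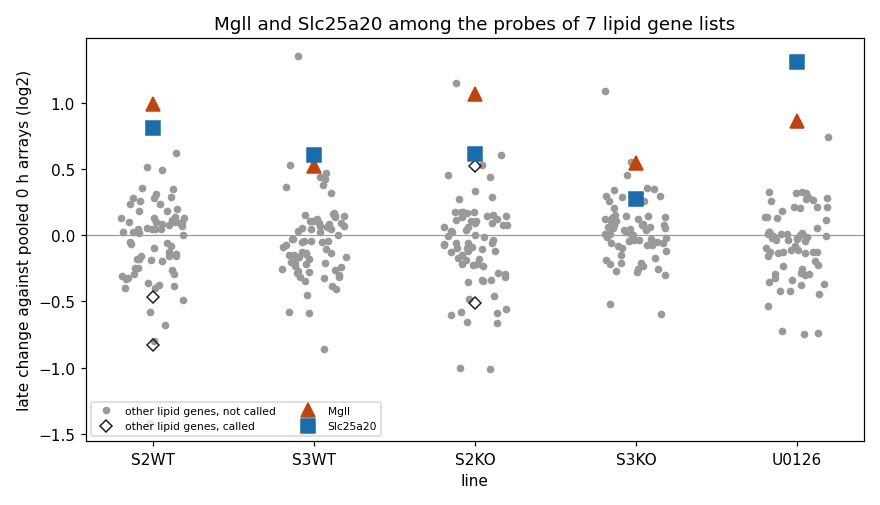
Late log2 change against the pooled 0 h arrays for Mgll (triangles), Slc25a20 (squares) and the other tested probes of 7 lipid gene lists by line (circles, not called; open diamonds, called). In U0126 Slc25a20 is at 1.31 and Mgll at 0.86, and 0 of 61 other genes were called.

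Known TGF-β targets served as a comparison for Mgll, with 9 of 12 listed genes on the array. This list too was chosen with results of these arrays known. Its calls and p-values are therefore a description and not an independent test. Against own 0 h arrays 2 were called higher in S2WT, 4 in S2KO, 0 in U0126, 1 in S3WT and 0 in S3KO. Against pooled 0 h arrays 5 were called higher in S2WT, 7 in S2KO, 3 in U0126, 4 in S3WT and 0 in S3KO. The shares of all probes called there were 1.27%, 2.49%, 0.782%, 0.146% and 0.0141% in that order of lines, and in S3KO only 1 of 7085 probes was called. Against own 0 h arrays they were 0.192%, 0.515%, 0.0719%, 0.12% and 1.53%. Hbegf, a growth factor that signals through the EGF receptor, rose by 1.81 ± 0.24 in S2WT, 2.23 ± 0.24 in S2KO and 1.15 ± 0.24 in U0126 against the pooled 0 h arrays (adjusted p = 8.4e-07, 1.31e-09 and 0.0058 by limma). Over the 25 group means the r of Mgll with Hbegf was 0.75, with Ccn1 0.65, with Skil 0.60, with Gadd45b 0.53 and with Bhlhe40 0.50. It was 0.47 with Smad7, 0.43 with Snai1, 0.26 with Klf10, and 0.23 and 0.18 with the Tgif1 probes. The r of Slc25a20 with these probes ran from 0.30 with Klf10 to 0.51 with Hbegf. Some probes of the lipid lists lay as far out. For Mgll these were Vldlr (-0.69), Scd1 (-0.65), Pprc1 (0.65), 1 Dgat1 probe (0.54) and Nrip1 (0.50). For Slc25a20 they were Acly (0.51) and Acat1 (0.49). These are the lipid probes with the strongest r, picked after their values were seen. Fibroblast markers (5 of 13 on the array), adipocyte (3 of 9), epithelial (2 of 7), macrophage (5 of 7) and endothelial markers (3 of 6) had 0 genes called in any late response, and their part in the values of Mgll and Slc25a20 was not tested.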

How the data were processed

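Dual-channel cDNA arrays of mouse cells gave, per the labels, a ratio of RNA from cells with and without TGF-β. The authors deposited log2 ratios, 1 value per probe and array. Image analysis, dyes, normalisation and build were not given in the sources used here. Here, 1344 values of 16.61, the largest deposited value and taken as a ceiling, were set to missing, blank cells stayed missing, and each array's median was subtracted. Gene names came from the platform annotation, for the 7348 probes with 1 symbol. Group means of 25 groups over all 74 arrays were fitted by least squares with limma 3.58.1 (R 4.3.3) variance moderation. A probe was tested where every group of a contrast had at least 2 arrays, with Benjamini-Hochberg adjustment over all probes tested and a threshold of 0.05. The fit was tested on simulated data. Promoter windows came from RefSeq.

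Members and lists were chosen with earlier results of these data known. The text names both genes, up to 4 genes per list with the smallest p against own 0 h arrays, each list gene called in a contrast, and the 5 most alike and 3 most opposite probes of each gene. Of those named by rule, a selection is printed. Same-numbered replicates were checked for pairing, and alternatives covered centring, scaling, ceiling values, probe filters, spread, array weights, replicate block, baseline and leaving out each array.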

Additional observations from a re-analysis of the deposited data

Results flagged for a closer look

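At 1 h the response of Mgll against its own 0 h mean was -0.08 in U0126 and 0.53 in S2WT, a difference of -0.61 (3 arrays each). All 3 U0126 arrays lay below and all 3 S2WT arrays above their own 0 h mean. The U0126 1 h arrays, 0.132 to 0.161, nevertheless lay within the range of its 0 h arrays, 0.114 to 0.445. In S2WT 1 of 3 arrays at 1 h was above the highest 0 h array, and the 0 h mean includes 1 array at -0.71. The difference at this time was not tested.

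At 1 h the response of Slc25a20 was 1.16 in S3KO (2 arrays) and -0.12 in S3WT (3 arrays), a difference of 1.28, with all arrays of each line on opposite sides of their own 0 h mean. The S3KO 0 h mean rests on arrays at -2.39 and 0.18, and both S3KO 1 h arrays lay below the second of these. The difference was not tested.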

How the results depend on the processing

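Of the alternative values of the late, 0.3 h and difference results of Mgll and Slc25a20, 722 moved by less than the residual SD and 9 by more. That SD, 0.449 for Mgll and 0.565 for Slc25a20, is of single arrays. It is a wide bar for means over several arrays, so the tally says little about stability. No called value changed sign. Uncalled values did, among them S3KO minus S3WT for both genes and S2KO minus S2WT for Mgll. The treated arrays read against 0 gave 0.24 for Mgll in S3WT, 0.78 for Mgll in S2KO and 0.012 for Slc25a20 in S3KO. Treated arrays compared directly gave, for S3KO minus S3WT, 0.022 for Mgll and -0.34 for Slc25a20, and for U0126 minus S2WT -0.13 for Mgll. Leaving out 1 array at a time, the S2KO response of Mgll ran from 0.80 to 1.81, its 0.3 h response in S2KO from -0.38 to 0.63 and its S2KO minus S2WT difference from -0.15 to 0.86. The lowest of each was without S2KO 0 h replicate 1. The pooled calls of Mgll held in 24 of 24 fits without 1 array in S2WT, S2KO and U0126, and that of Slc25a20 in U0126 in 20 of 20. Without S3WT 0 h replicate 3, Mgll in S3WT was 1.58 and was called. Over the settings other than leaving out an array, the calls of Scd1 against the pooled 0 h arrays held in 6 of 6. The call of Aldh9a1 held in 3 of 5, of Dgat1 in 1 of 5, of Rxra in 4 of 8 and of Pecr in 3 of 7.

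Whether same-numbered replicates pair was not settled. A correlation over 0.1, a bar set by choice, was reached by 11 of 30 pairs in S2WT, 15 of 30 in S2KO and 7 of 30 in U0126. In S3WT it was 1 of 30 and in S3KO 13 of 26. The mean correlation of same-numbered arrays was above that of other arrays in all 5 lines, from 0.04 against -0.02 in U0126 to 0.11 against -0.05 in S3KO. Values were centred within each group for this check, so the 2 means are tied and are not separate comparisons. The call of Mgll in S2KO held in 6 of 8 other settings, and was lost at 1.07 with arrays scaled to a common spread and at 1.37 with arrays of the compared line only. With the replicate block Mgll in S2KO was 1.37 and stayed called, and Slc25a20 in S3KO was 1.20. Counts of calls over all probes moved as well: the own S2KO count of 42 ran from 16 to 92 without 1 array, and the own S3KO count of 114 from 45 to 418. With the spread from arrays of the compared line only, the own counts were 2 in S2WT and S3WT and 0 in S2KO, S3KO and U0126. With treated arrays against 0 they were 1960 in S2WT, 2214 in S2KO, 1214 in U0126, 733 in S3WT and 142 in S3KO. Spot signal and depth are unknown, and 2 or 3 arrays per group limit every value.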
